A study of Mus musculus with 4 samples.

Results

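Conventional CD4 T cells of the mouse lung were described from single-cell RNA-seq of lungs taken 14 days after 0.8 U/kg bleomycin, given into the trachea as a model of pulmonary fibrosis. There were 2 wild-type (WT) and 2 Tubb3-/- mice, littermates, adult and all treated with bleomycin, so no group without injury was compared. The Tubb3-/- mice carried a Cre gene knocked in at the start of *Tubb3* on both alleles, in every cell of the body, and the WT mice did not. Each mouse gave whole lung cells depleted of erythrocytes and a sample enriched for mural cells, from which cells with CD45 had been removed. The 8 samples were tagged and sequenced in 2 pools.

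A cell was counted as a conventional CD4 T cell when it had 200 to 7500 genes, at most 15% mitochondrial UMIs (unique molecular identifiers, 1 for each RNA molecule counted), at least 1 UMI of *Cd3e* and of *Cd4*, and 0 UMIs of *Foxp3*, *Cd8a*, *Cd8b1*, *Cd79a*, *C1qa*, *Cdh5*, *Pdgfra* and *Epcam*. The members were thus chosen by measured values, and the levels of these 10 genes are no result. There were 278 such cells among 30860 kept cells of 32121 deposited. The whole-cell libraries held 274 of them, 89 and 51 from WT mice 1 and 2 and 76 and 58 from Tubb3-/- mice 1 and 2. The other 4 came from the mural cell-enriched libraries, 1 per mouse.

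CD4 T cells recognise peptides on MHC class II molecules and act mainly by secreting cytokines and by contact with other cells. Naive cells circulate through lymph nodes with the help of *Ccr7* and *S1pr1*, under transcription factors such as *Lef1*, *Tcf7* and *Klf2*. After activation they become helper subsets, Th1 cells with *Tbx21* and *Ifng*, Th2 cells with *Gata3*, *Il4*, *Il5* and *Il13*, and Th17 cells with *Il17a*, and part of them stay in tissue with *Cd44*, *S100a4* and *Cxcr6*. Regulatory T cells (Tregs) carry *Foxp3* and restrain the others. All of these have been studied in lung fibrosis.

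The rule rested on few molecules. Members had a median of 2 UMIs of *Cd3e* and 1 of *Cd4*, and 46 members had a single UMI of both. Of the 774 kept cells with *Cd3e* and *Cd4*, 163 were left out by *Foxp3* alone, 41 of these by a single UMI, and 45 by *Cdh5* alone, 27 by a single UMI. Just outside the rule lay another 326 cells with *Cd3e* and none of *Cd4* or the other genes. Members held a median of 6337.5 UMIs, from 1834 to 42162, and 23 members had over 2 times the median of their library. Cell barcodes found in both pools numbered 59, none of them a member's. The cell tag with the most UMIs was that of another mouse in 1 member, and 246 members had most of their tag UMIs from the tag of their own mouse.

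The label was checked with genes the rule did not use. In 277 members thinned at random to 2000 UMIs each, *Trbc2* and *Trac*, the constant chains of the T cell receptor, had a UMI in 77.6% and 57.8%, against 0.431% and 0.324% of fibroblasts (1854 cells with *Pdgfra* and *Col1a1*) and 0.952% and 0.317% of epithelial cells (315 cells with *Epcam* and *Cdh1*). Both of these groups, here and below, were whole-cell library cells also chosen to have no UMI of *Cd3e* or of *Ptprc*, the gene of CD45. That choice left out cells with some T cell RNA, so their low shares were partly set in advance. Unthinned, these shares were 94.2% and 89.6% in members and 3.11% to 6.67% in the other cells. Median depths before thinning were 17909 and 19181 UMIs in those fibroblasts and epithelial cells. *Cd40lg*, a ligand that activated helper cells show to B cells and macrophages, had a UMI in 26.4% of thinned members, 3.68% of Tregs and 3.37% of CD8 T cells, and unthinned in 46.4%, 16.6% and 6.70%. Tregs here are the 163 cells with *Foxp3* and otherwise the same genes, and CD8 T cells the 179 cells with *Cd3e*, *Cd8a* or *Cd8b1* and no *Cd4* or *Foxp3*. RNA of other cells was also counted. *Sftpc*, a surfactant gene of alveolar epithelial cells, had a UMI in 48.4% of thinned members and *Lyz2* of macrophages in 63.2%, against 42.7% and 59.6% of CD8 T cells. The 9 listed macrophage genes summed to 1298 to 7370 CPM (UMIs scaled to the same total in every sum) in the members of the 4 mice, with 1 cell of 1881 *Lyz2* UMIs in the highest, WT mouse 2. *Il2ra*, *Ikzf2* and *Ctla4*, which mark most Tregs, were found together in 21 of 278 members (7.55%), in 130 of 163 Tregs (79.8%) and in 3 of 179 CD8 T cells. By mouse these 21 were 8 and 3 in WT, and 9 and 1 in Tubb3-/- mice.

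As a share of all kept whole-cell cells, CD4 T cells overlapped between genotypes. WT mouse 1 had 2.61% (95% exact binomial interval 2.10% to 3.21%) and WT mouse 2 1.64% (1.22% to 2.14%), while Tubb3-/- mice 1 and 2 had 1.82% (1.44% to 2.27%) and 1.68% (1.28% to 2.16%). WT mouse 1 stood highest and the other WT mouse lowest. The means were 2.12% ± 0.691 for WT and 1.75% ± 0.0993 for Tubb3-/- (SD, n = 2 each, two-sided exact permutation p = 1). With 2 mice a side this test gives no p below 0.33. These intervals cover counting error only.

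Relative to all cells with *Cd3e* and to Tregs, the mice of the genotypes lay apart. Of all cells with *Cd3e*, CD4 T cells were 16.9% and 16.1% in WT but 12.03% and 13.5% in Tubb3-/- mice, with means of 16.5% ± 0.565 and 12.8% ± 1.06 (SD, n = 2 each, exact permutation p = 0.33). Both WT mice lay above both Tubb3-/- mice. CD4 T cells per Treg were 2.34 and 4.25 in WT, and 1.00 and 1.61 in Tubb3-/- mice (exact permutation p = 0.33). The Tregs themselves were 7.21% and 3.79% of the cells with *Cd3e* in WT and 12.03% and 8.39% in Tubb3-/- mice. CD8 T cells lay apart in the same direction as CD4 T cells. They were 12.7% and 8.52% of the cells with *Cd3e* in WT and 7.91% and 7.93% in Tubb3-/- mice (exact permutation p = 0.33). Against CD8 T cells the ratio overlapped, at 1.33 and 1.89 in WT and 1.52 and 1.71 in Tubb3-/- mice. Many cells with *Cd3e* were in none of these gates. Of 527 in WT mouse 1, 89 were CD4 T cells, 38 Tregs and 67 CD8 T cells. The choice of denominator, all cells or cells with *Cd3e*, thus decided whether the mice overlapped, and neither difference could pass a threshold of 0.05. When every cell was first thinned to 2000 UMIs, the shares of kept cells were 0.968% and 0.592% in WT and 0.929% and 0.836% in Tubb3-/- mice, higher on average in Tubb3-/- mice.

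**Figure D1:**
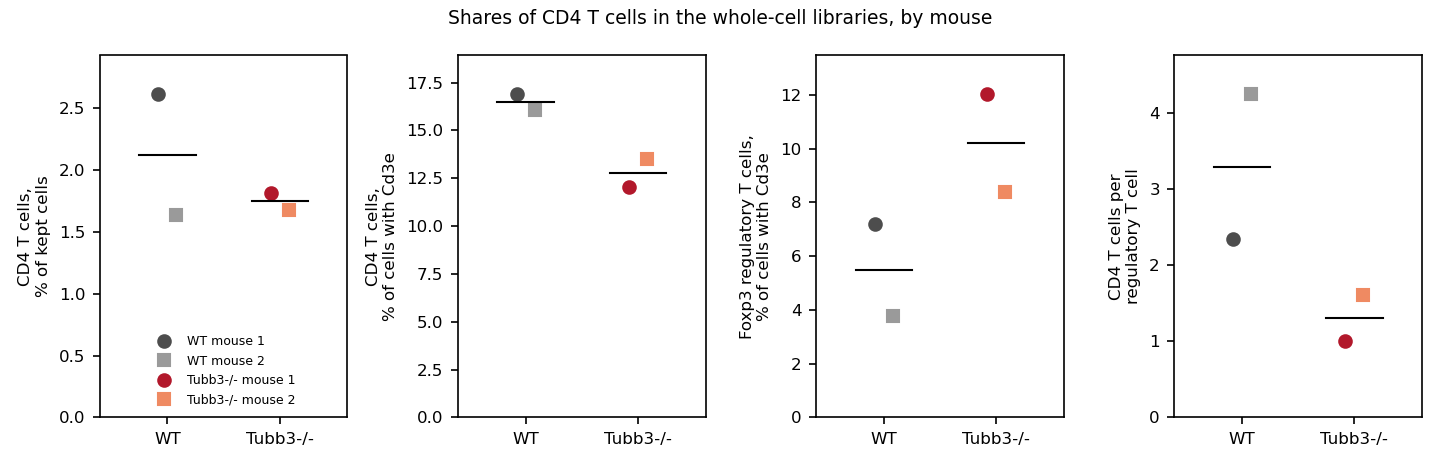
CD4 T cells as a percentage of kept cells and of cells with *Cd3e*, Tregs as a percentage of cells with *Cd3e*, and CD4 T cells per Treg, in the whole-cell libraries of each mouse; points are mice and lines are means of 2 mice. The share of kept cells overlaps between genotypes, while the share of cells with *Cd3e* is 16.1% to 16.9% in WT and 12.03% to 13.5% in Tubb3-/- mice.

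Within the CD4 T cells, genes of naive cells and genes of tissue memory cells lay mostly in different cells. Cells with a UMI of *Ccr7* and none of *S100a4* or *Cxcr6* numbered 101 (36.3%), cells with *S100a4* or *Cxcr6* and no *Ccr7* 110 (39.6%), cells with both 38 and cells with neither 29. The split used *Ccr7*, *S100a4* and *Cxcr6*, so the values that follow describe these cells and carry no test. Median depths were alike, 6270 and 6302.5 UMIs. Levels are CPM of the summed cells, without correction for gene length, since only 3′ ends were counted.

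Cells with *Ccr7* alone held *Satb1*, a chromatin organiser, at 2427 CPM against 263 in cells with *S100a4* or *Cxcr6* alone. *Lef1* was at 1615 against 154 CPM and *Klf2*, a factor of naive and circulating cells, at 864 against 274. All 11 listed genes of naive and central memory cells, *Ccr7* among them, were higher in the cells with *Ccr7* alone. *Dapl1* had 104 UMIs in those cells and 0 in the other ones.

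*Rora*, a nuclear receptor of helper subsets, was at 1310 CPM in cells with *S100a4* or *Cxcr6* alone against 49.3 in cells with *Ccr7* alone. *Icos*, a costimulatory receptor, was at 1025 against 167 CPM, *Ctla4*, an inhibitory receptor, at 817 against 88.4 and *Cd44*, an adhesion receptor, at 565 against 65.2. All 17 listed genes of effector and resident memory cells, *S100a4* and *Cxcr6* of the split among them, were higher there, as were the 11 of Th1, the 9 of Th2 and the 11 of Th17 cells. Some of these rested on few molecules, *Il17f* on 1 UMI and *Eomes* on 4. Most other lists lay the same way, with 12 of 12 activation genes, 23 of 26 cytokines, 12 of 14 genes of the response to tissue dissociation and 11 of 14 cell cycle genes, and of 9216 genes with at least 10 UMIs in these cells 60.5% were higher there and 39.5% in the cells with *Ccr7* alone. Of the 15 Treg genes, 14 were higher there too, with *Ikzf2* at 685 against 10.1 CPM. *Trbc2* was close, at 963 against 1055 CPM, and *Trac* was at 632 against 361. The split used unthinned counts, in which *S100a4* had a UMI in 47.8% of members and 41.5% of the deeper fibroblasts. For *Cxcr6* these shares were 31.7% and 1.66%. After thinning to 2000 UMIs *S100a4* had a UMI in 36.5% of members and 11.5% of fibroblasts, and *Cxcr6* in 20.9% and 0.108%. In epithelial cells *S100a4* had a UMI in 18.4% unthinned and 2.54% thinned. Whether the *S100a4* of fibroblasts was their own RNA was not tested. The part of RNA from other cells in the split was not tested. By mouse, the cells with *Ccr7* alone were 36.7% and 42.3% of members in WT and 24.7% and 45.8% in Tubb3-/- mice, so the genotypes overlapped.

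**Figure D2:**
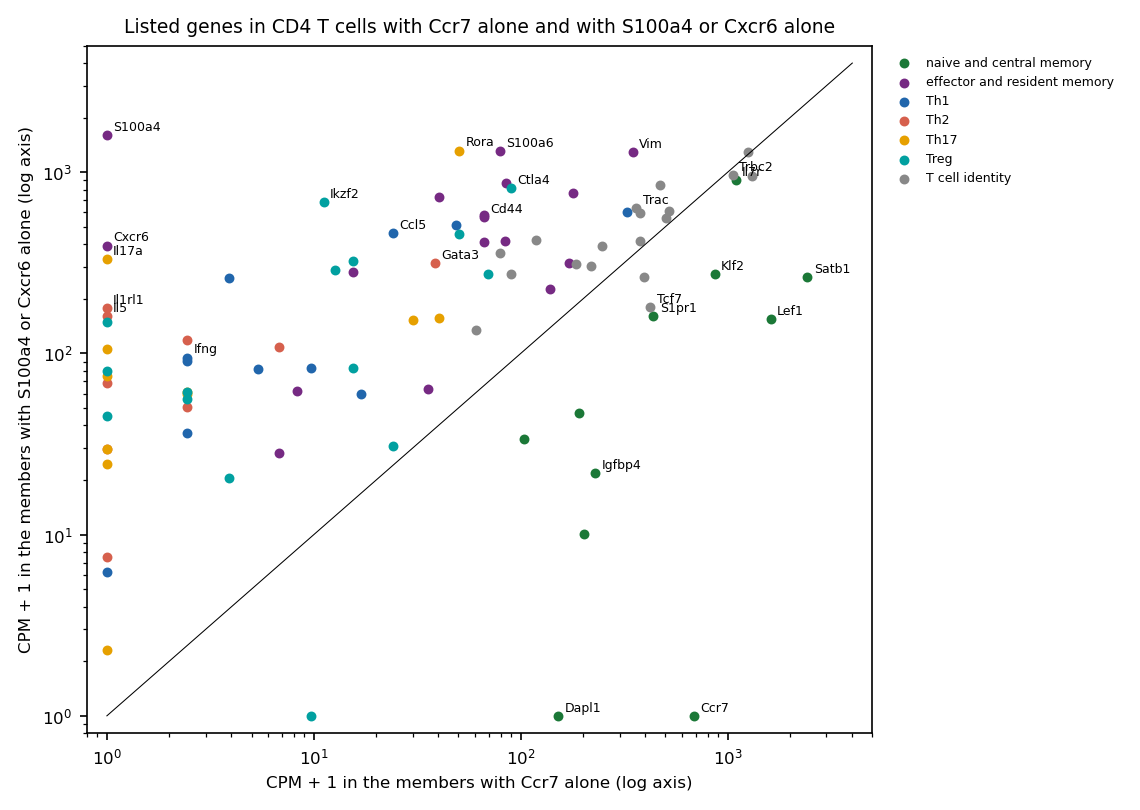
Level of listed genes in the 101 cells with *Ccr7* alone (x axis, CPM + 1, log axis) and in the 110 cells with *S100a4* or *Cxcr6* alone (y axis, CPM + 1, log axis), each point a gene coloured by its list. All 11 naive and central memory genes lie under the diagonal and all 17 effector and resident memory genes above it, as do 14 of the 18 T cell identity genes.

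RNA of several cytokines of the helper subsets came from few members. *Il17a* had 255 UMIs in 10 cells, 118 of them in 1 cell, and by mouse 135 and 0 UMIs in WT and 21 and 99 in Tubb3-/- mice. The type 2 cytokines were narrower still. *Il5* had 126 UMIs in 6 cells, 75 in 1 cell of WT mouse 2 and 45 in 1 cell of Tubb3-/- mouse 2. That Tubb3-/- cell also held 44 of the 53 *Il4* UMIs and 21 of the 22 *Il13* UMIs of all members, with 41 UMIs of *Areg*, 12 of *Gata3* and 11 of *Il1rl1*, the receptor of interleukin 33. *Ifng* had 75 UMIs in 18 cells, and by mouse 38 and 3 in WT and 6 and 28 in Tubb3-/- mice. *Il2*, the growth factor of T cells, was spread more widely, at 50 UMIs in 28 cells. *Il21* had a single UMI. Other cytokines were found in more members, with *Tnf* at 91 UMIs in 34 cells and *Areg* at 207 UMIs in 37. *Ccl5* had a UMI in 16.2% of thinned members, 2.64% of thinned fibroblasts and 1.27% of thinned epithelial cells. Unthinned, it had a UMI in 27.0% of members, 19.1% of fibroblasts and 19.0% of epithelial cells. Lymphotoxin beta (*Ltb*) had one in 68.3% of the cells with *Ccr7* alone and 69.1% of those with *S100a4* or *Cxcr6* alone. A level of *Il17a*, *Il4*, *Il5*, *Il13* or *Ifng* per mouse was therefore the content of a few cells, and the mice of the genotypes overlapped for *Il17a*, *Ifng* and *Il5*.

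Against Tregs of the same mice, genes of naive cells were higher in CD4 T cells and nearly all genes of the Treg list lower. UMIs were summed per mouse and gate, 404072 to 605730 in CD4 T cells and 115158 to 612459 in Tregs, and tested with edgeR's quasi-likelihood test with the mouse as a term and Benjamini-Hochberg adjustment at 0.05. Of 5636 genes tested, without the 10 genes of the rule, 392 (6.96%) were higher and 400 (7.1%) lower in CD4 T cells. The median log2 fold of all genes was 0.01. WT mouse 2 had only 12 Tregs, and without WT mouse 1 or Tubb3-/- mouse 1 the 792 called genes in both directions (14.1%) became 485 and 447. In WT mouse 2 the listed epithelial genes also summed to 67950 CPM in those Tregs, against 1323 to 1389 in the Tregs of the other mice, and their part in the comparison was not tested.

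Of the 11 naive and central memory genes, 10 were higher in CD4 T cells than in Tregs and 0 lower, with a median log2 fold of 2.49. *Lef1*, which cooperates with *Tcf7* in naive T cells, was at 942 and 1062 CPM (scaled by TMM, the trimmed mean of M values) in the CD4 T cells of the WT mice and at 572 and 910 in Tubb3-/- mice. In Tregs it was at 58.0 and 135 CPM in WT and 84.2 and 221 in Tubb3-/- mice. Every CD4 value lay above every Treg value, and the log2 fold was 2.86 ± 0.26 (SE; edgeR adjusted p = 6.55e-05). *S1pr1*, the receptor that guides cells out of lymphoid tissue, followed with a log2 fold of 2.59 ± 0.21. *Tcf7*, counted in the T cell identity list, had a log2 fold of 3.0 ± 0.47. Both were also higher in 4 of 4 mice. *Ccr7* itself differed less, at 1.61 ± 0.37, with 367 CPM in the Tregs of WT mouse 2 and 28.6 to 152 in those of the other mice.

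The Treg list gave the reverse, with 13 of 14 tested genes lower in CD4 T cells, 0 higher, and a median log2 fold of -2.39. Tregs were chosen by *Foxp3*, so these genes describe what goes with it. *Ikzf2* (Helios) was at 470 and 211 CPM in the CD4 T cells of the WT mice and 431 and 132 in Tubb3-/- mice. The Tregs held 2527 to 3507 CPM, and no mouse overlapped (log2 fold -3.35 ± 0.22, adjusted p = 1.9e-05). *Tnfrsf9*, a costimulatory receptor, differed by -3.09 ± 0.17, *Il2ra*, the high-affinity chain of the interleukin 2 receptor, by -3.05 ± 0.22, and *Klrg1*, a receptor of terminally differentiated cells, by -3.58 ± 0.24. *Hopx*, outside the lists, had a log2 fold of -3.40 ± 0.21.

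The helper lists divided. Of 7 Th1 genes tested, 3 were higher in CD4 T cells (*Tbx21*, *Ccl5* and *Nkg7*, with log2 folds of 1.90, 1.68 and 1.85) and 1 was lower, *Il18rap*, an interleukin 18 receptor chain. Of 5 Th2 genes, 4 were lower and 0 higher. Among them *Il1rl1* was at 72.1 and 126 CPM in WT and 60.3 and 84.3 in Tubb3-/- CD4 T cells, against 662 to 1153 in Tregs (log2 fold -3.29 ± 0.24). *Gata3* differed by -1.42 ± 0.26. Of 9 Tfh genes, 2 were higher and 4 lower, *Pdcd1* by a log2 fold of -2.16.

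Among ligands, CD4 T cells had more *Cd40lg* (log2 fold 2.65 ± 0.31), *Tnfsf11* (RANK ligand, 2.73 ± 0.32) and *Tnfsf8* (CD30 ligand, 2.37 ± 0.30), each higher in 4 of 4 mice. *Areg*, the growth factor amphiregulin that acts on epithelial cells, was lower, at 48.6 and 35.7 CPM in WT and 188 and 154 in Tubb3-/- CD4 T cells against 512 to 894 in Tregs (log2 fold -2.84 ± 0.34). Of 12 cytokine genes tested, 5 were higher and 4 lower in CD4 T cells. *Il17a* was called higher as well, though WT mouse 2 had 0 UMIs of it in its CD4 T cells. Of 16 effector and resident memory genes, 8 were lower and 1 higher, with *S100a4* at -1.31 ± 0.12 on the log2 scale. Among markers of other cells, *Acta2* of mural cells was higher in CD4 T cells (log2 fold 1.92), at 137, 52.2, 486 and 140 CPM in the 4 mice. *Col1a2* of fibroblasts (1.17) and *Pecam1* of endothelial cells (0.69) were also higher, and the immunoglobulin chains *Ighm* (-1.06) and *Igkc* (-1.50) of B cells were lower. The part of such RNA in the other differences was not tested.

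Against CD8 T cells the order of the naive and memory lists turned. Of 5541 genes tested, 177 (3.19%) were higher and 219 (3.95%) lower in CD4 T cells, with a median log2 fold of -0.01. Without WT mouse 1 or Tubb3-/- mouse 1 the called genes numbered 235 and 225 in place of 396. Of 11 naive and central memory genes, 5 were lower in CD4 T cells and 0 higher, with a median of -0.46. *Ccr7* was at 303 and 476 CPM in WT and 214 and 258 in Tubb3-/- CD4 T cells, against 427 to 750 CPM in CD8 T cells (log2 fold -0.88 ± 0.15, edgeR adjusted p = 0.00304). It was lower in 4 of 4 mice, although the ranges overlapped. *Lef1* had a log2 fold of -0.60 ± 0.093, also lower in 4 of 4 mice.

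Of 16 effector and resident memory genes, 9 were higher than in CD8 T cells and 0 lower. *S100a4*, a calcium-binding protein of memory cells, led them at 753 and 435 CPM in WT and 857 and 904 in Tubb3-/- CD4 T cells, against 204 to 290 CPM in CD8 T cells (log2 fold 1.54 ± 0.17). Summed without TMM, the 11 naive and central memory genes came to 4001 to 4947 CPM in CD4 T cells, 1308 to 2362 in Tregs and 4923 to 6262 in CD8 T cells. CD4 T cells lay between both other gates in 4 of 4 mice, although their range overlapped that of CD8 T cells. The 17 effector and resident memory genes summed to 4833 to 6485 CPM in CD4 T cells, 7069 to 12298 in Tregs and 2747 to 3979 in CD8 T cells, with no overlap between gates.

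Of the 9 listed Th2 genes, 3 had enough counts to be tested, and all 3 were higher in CD4 than in CD8 T cells. They were *Il1rl1* (log2 fold 4.28 ± 0.35), the chemokine receptor *Ccr4* (3.49 ± 0.43) and *Gata3* (2.36 ± 0.23). In both comparisons of gates, a gene could be tested when a single gate carried it. A gene near 0 in CD8 T cells, such as *Il1rl1* (0% of thinned CD8 T cells), thus entered only through CD4 T cells. Its direction was then largely set in advance, and such counts are a description. Of 9 Th1 genes, 4 were lower and 1 higher. *Ccl5*, a chemokine of cytotoxic cells, was at 195 and 422 CPM in WT and 400.1 and 523 in Tubb3-/- CD4 T cells, against 2485 to 3540 in CD8 T cells (log2 fold -3.08 ± 0.21). *Ly6c2* differed by -3.90 ± 0.26 and the granule protein *Nkg7* by -2.04 ± 0.26. *Klrd1*, an NK cell receptor, had a log2 fold of -3.66 ± 0.24 and *Bend4* of -5.02 ± 0.46.

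The TNF receptor family members *Tnfrsf4* (OX40) and *Tnfrsf9* were higher in CD4 than in CD8 T cells. *Tnfrsf4* was at 295 and 241 CPM in WT and 314 and 140 in Tubb3-/- CD4 T cells against 0 to 30.2 CPM in CD8 T cells (log2 fold 4.22 ± 0.31). *Tnfrsf9* differed by 2.97 ± 0.29. Of 15 listed Treg genes, 9 were tested. Of these, 6 were higher than in CD8 T cells, *Ctla4* with a log2 fold of 2.23, and 0 lower. The choice of tested genes limits this count and that of Tfh genes, as it does for Th2 genes. Of 7 Tfh genes, 5 were higher and 0 lower, with *Izumo1r* (folate receptor 4) at 2.44 ± 0.34 and the transcription factor *Maf* at 1.86 ± 0.23. Of 19 interferon response genes 2 were higher, *Ifi27l2a* and *Ly6a*, and 0 lower, and their calls were lost under 3 and 4 of 12 alternatives, with DESeq2 and without WT mouse 1 or Tubb3-/- mouse 1 for both. *Il17a* was higher than in CD8 T cells in 3 of 4 mice (log2 fold 3.66 ± 0.79, adjusted p = 0.0141), and the call was lost without WT mouse 1 (log2 fold 2.59, adjusted p = 0.229) or Tubb3-/- mouse 2 (3.53, adjusted p = 0.0851), or with DESeq2 (4.06, adjusted p = 0.376).

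**Figure D3:**
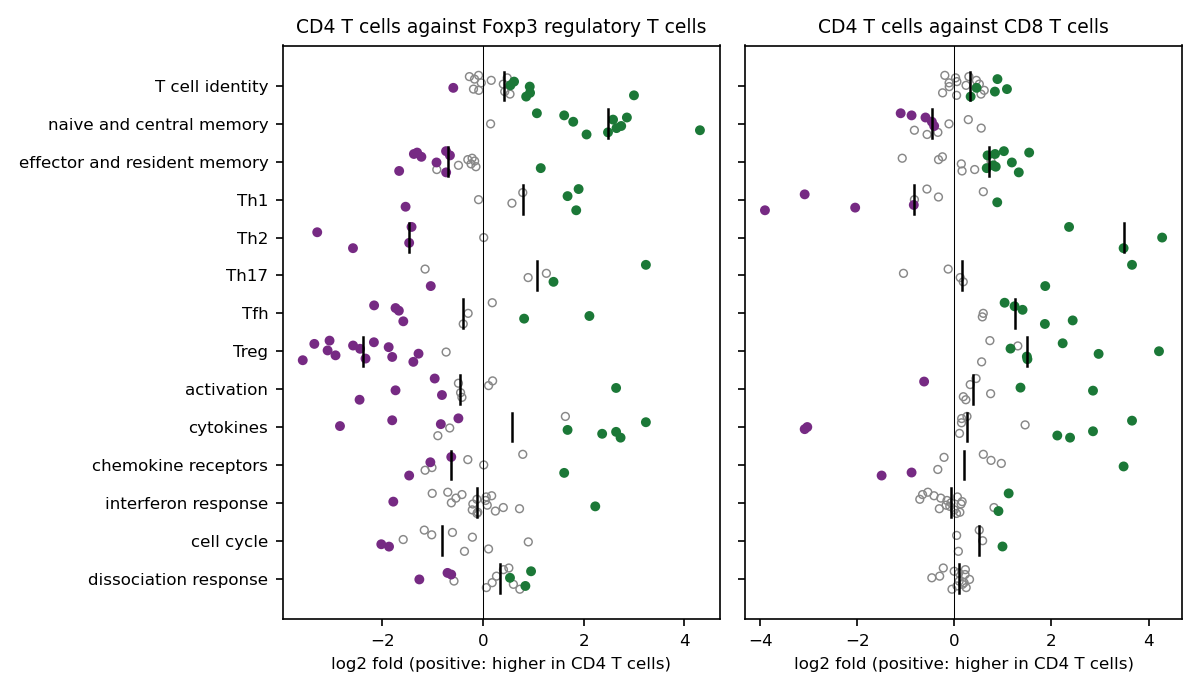
log2 fold of each tested list gene in CD4 T cells against Tregs (left) and against CD8 T cells (right); filled points (green higher, purple lower in CD4 T cells) had an edgeR adjusted p-value under 0.05, open points did not, and vertical bars are list medians. Naive and central memory genes lie to the right of 0 against Tregs (median 2.49) and mostly to the left against CD8 T cells (median -0.46).

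Ribosomal protein genes, a group chosen after its values were seen, followed the same order. Of 79 tested, 74 were higher in CD4 T cells than in Tregs (median log2 fold 0.60) and 68 were lower than in CD8 T cells (median -0.37). The median log2 fold of all genes stayed at 0.01 and -0.01 in these comparisons.

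Between genotypes the CD4 T cells differed in 4 called genes, all of them carried by 2 cells. *Tubb3*, the targeted gene, gave no check in these cells, with 0 and 1 UMIs in the members of the WT mice and 0 and 0 in Tubb3-/- mice. In all kept whole-cell cells it was at 1.97 and 0.858 CPM in WT and 0.275 and 0.335 in Tubb3-/- mice. Of 6481 genes tested over the sums of the 4 mice, 4 (0.0617%) had an adjusted p-value under 0.05 (edgeR) and 339 an unadjusted p-value under 0.05. All 4 were lower in Tubb3-/- mice. DESeq2 called 8 genes, of which 1 was higher. Fewer CD4 T cells of a state and less RNA per cell cannot be told apart in such sums.

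The called genes were *H2-Ab1* and *H2-Eb1*, chains of MHC class II, *Cd74*, the invariant chain that guides them, and *Cst3*, a protease inhibitor abundant in dendritic cells. *H2-Ab1* (ENSMUSG00000073421, mm10 chromosome 17, 34257689 to 34269419, plus strand) was at 390 and 457 CPM in WT and 79.0 and 73.6 CPM in Tubb3-/- mice. The mice did not overlap, and the log2 fold of Tubb3-/- against WT was -2.46 ± 0.22 (SE, adjusted p = 0.00979). *H2-Eb1* differed by -2.57 ± 0.26, *Cd74* by -2.03 ± 0.23 and *Cst3* by -1.92 ± 0.22. *H2-Aa*, the partner of *H2-Ab1*, missed the threshold at -2.13 ± 0.31 (adjusted p = 0.0582).

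A single cell in each WT mouse held most of these UMIs. In WT mouse 1, a cell of 35326 UMIs had 919 of the 1121 UMIs of *H2-Aa*, *H2-Ab1*, *H2-Eb1* and *Cd74* together, and in WT mouse 2 a cell of 17471 UMIs had 648 of 778. The median member had 2 such UMIs, the next highest member 49, and 269 members had at most 10. Both cells also carried *Cst3* (661 and 252 UMIs) and genes of conventional type 1 dendritic cells, with 19 and 3 UMIs of *Xcr1*, 8 and 2 of *Clec9a* and 58 and 3 of *Wdfy4*, beside 8 and 2 UMIs of *Cd3e* and 6 and 3 of *Trbc2*. The 6 listed dendritic cell genes, *H2-Aa* and *Cd74* among them, summed to 1113 and 1228 CPM in all WT members and 276 and 281 in Tubb3-/- members. The rule has no dendritic cell gene among its zeros.

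Without those 2 cells, the other members held 202 and 130 MHC class II UMIs in WT and 241 and 184 in Tubb3-/- mice. No gene was then called by edgeR (0 of 6394, with 308 at an unadjusted p-value under 0.05), nor without the 23 members of over 2 times the median UMIs (0 of 5468, with 299 at that level). The log2 fold of *H2-Ab1* became 0.11 and that of *Cd74* 0.59, both turned in sign. *H2-Eb1* fell to -0.32 and *Cst3* to -0.18. The other alternatives kept these 4 genes past the threshold, except that leaving out Tubb3-/- mouse 2 gave adjusted p-values of 0.629 to 0.960 at log2 folds of -2.56 to -1.74.

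**Figure D4:**
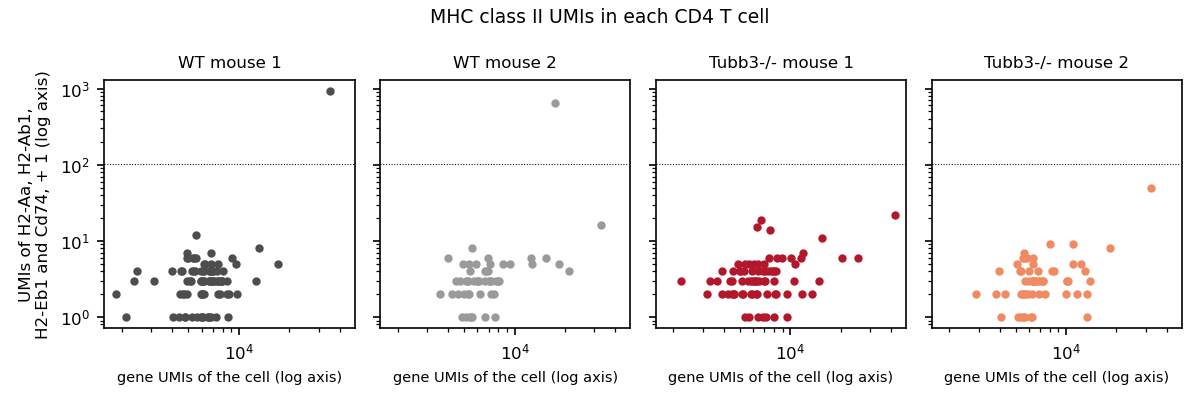
UMIs of *H2-Aa*, *H2-Ab1*, *H2-Eb1* and *Cd74* together plus 1 (y axis, log axis) against all gene UMIs (x axis, log axis) of each member, by mouse; the dotted line marks 100 UMIs. One cell in each WT mouse lies above the line, at 919 and 648 UMIs, and no cell of the Tubb3-/- mice does.

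The next genes in order of p were *Areg*, *Mctp1*, *Olfr1033*, *Pid1*, *H2-Aa* and *Plbd1*, none of them called. *Areg* was at 46.2 and 34.1 CPM in WT and 181 and 147 in Tubb3-/- mice (log2 fold 2.00 ± 0.28, adjusted p = 0.0555). No WT mouse reached the lower of the Tubb3-/- mice. It had 27 and 13 UMIs in WT and 103 and 64 in Tubb3-/- mice, from 37 members in all. The highest cell held 41 of the 207 UMIs. Of these UMIs, 176 lay in the 95 members with *Il2ra* or *Ikzf2*, and outside them *Areg* was too sparse to be tested. By mouse, the members with *Il2ra* or *Ikzf2* numbered 36 and 16 in WT and 29 and 14 in Tubb3-/- mice, and their *Areg* UMIs 26 and 7 against 99 and 44. Leaving out 1 mouse at a time gave log2 folds from 1.81 to 2.28, and adjusted p-values from 0.000387 to 0.960. DESeq2 gave 0.0261, and without the 23 members of over 2 times the median UMIs the log2 fold was 1.53 (adjusted p = 0.665). *Areg* is on mm10 chromosome 5, 91139599 to 91148432, plus strand.

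The other 5 genes had much of their UMIs in single cells. *Olfr1033* had 40 of 96 UMIs in 1 cell of Tubb3-/- mouse 1, and *Mctp1* 56 of 133 in 1 cell of WT mouse 2. *Plbd1* had 21 and 16 of its 45 UMIs in the 2 cells with MHC class II. *Hbb-bs*, a haemoglobin chain and the tested gene with the largest log2 fold, was at 6691 CPM in Tubb3-/- mouse 1 and 18.8 to 25.3 CPM in the other mice, and 3795 of its 3842 UMIs lay in 1 cell (log2 fold 7.32, adjusted p = 0.701).

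Of the gene lists, only that of dendritic cells had a called member, *Cd74*. Mice of the genotypes did not overlap for 1119 of all 6481 genes in the higher direction (17.3%) and 1050 in the lower (16.2%). Of 24 interferon response genes tested, 0 were higher without overlap and 7 lower, 19 lay below 0, and the median log2 fold was -0.19 against -0.0008 over all genes. *Isg15*, a ubiquitin-like protein, was at 56.5 and 31.5 CPM in WT and 26.3 and 6.90 in Tubb3-/- mice (log2 fold -1.36 ± 0.56, adjusted p = 0.905). Of the 8 cell cycle genes tested, 8 lay above 0, with a median of 0.27 and 2 that did not overlap. *Top2a*, which untangles DNA before division, was at 13.7 and 65.7 CPM in WT and 89.5 and 124 in Tubb3-/- mice (adjusted p = 0.848).

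Of the 11 naive and central memory genes, 5 were lower and 3 higher in Tubb3-/- mice without overlap, with a median of -0.08. *Ccr7* was at 308 and 483 CPM in WT and 218 and 262 in Tubb3-/- mice (log2 fold -0.71 ± 0.25, adjusted p = 0.835). *Tcf7*, counted in the T cell identity list, lay the other way at 265 and 255 CPM in WT against 356 and 414 in Tubb3-/- mice. Of 8 Th17 genes, 5 were higher without overlap and 0 lower, with a median of 0.46, and *Il17a* itself overlapped. Of 10 Th1 genes, 1 was higher and 0 lower. *Cxcr3*, the receptor of *Cxcl10*, was at 59.9 and 13.1 CPM in WT and 47.4 and 57.5 in Tubb3-/- mice, so the mice overlapped (log2 fold 0.40 ± 0.52, adjusted p = 1). *Cxcl10* had 29 UMIs in 15 members and was not tested. On simulated counts of this depth, edgeR recovered 83% of changes of log2 size 2 but 7.5% of changes of size 1. Most changes of the smaller size would thus be missed with 2 mice a side. The simulation gave every gene the same spread between mice. In the real sums a single cell could hold most UMIs of a gene, 98.8% for *Hbb-bs*, so recovery of such genes may be lower.

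Shares of cells with a UMI were compared as well, after thinning to 2000 UMIs, for 34 genes. They overlapped between genotypes for 25 of them and did not for 9, among them *Trac*, *Ccr7*, *Il1rl1*, *Il17a*, *Ccr6*, *Mki67*, *Col1a1* and *Hbb-bs*. Over all 9870 genes with a UMI in at least 1% of thinned members, the shares did not overlap for 32.7%, so 9 of 34 was no more than the background and the values of single genes are given as a description. *Ccr7* had a UMI in 36.0% and 44.2% of CD4 T cells in WT and 19.5% and 33.9% in Tubb3-/- mice. *Il1rl1* was found in 8.99% and 11.5% against 6.49% and 5.08%, and *Mki67*, a marker of dividing cells, in 2.25% and 1.92% against 5.19% and 6.78%. The exact permutation p was 0.33 for each of the 9. In unthinned cells *Ccr7* overlapped, at 47.8% and 59.6% in WT and 42.9% and 54.2% in Tubb3-/- mice. Unthinned shares stayed apart for *Mki67*, at 5.56% and 5.77% against 10.4% and 10.2%, and for *Il1rl1*, at 11.1% and 15.4% against 10.4% and 10.2%. *Ctla4* was found in 31.5% and 23.1% in WT and 42.9% and 20.3% in Tubb3-/- mice, an overlap, and *Cxcr3* overlapped too. For *Ccr7* the share in fibroblasts was 0.809% thinned and 6.07% unthinned, and in epithelial cells 0.317% and 9.21%. For *Mki67* it was 0.755% and 3.97% in fibroblasts, and 0.952% and 6.35% in epithelial cells.

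**Figure D5:**
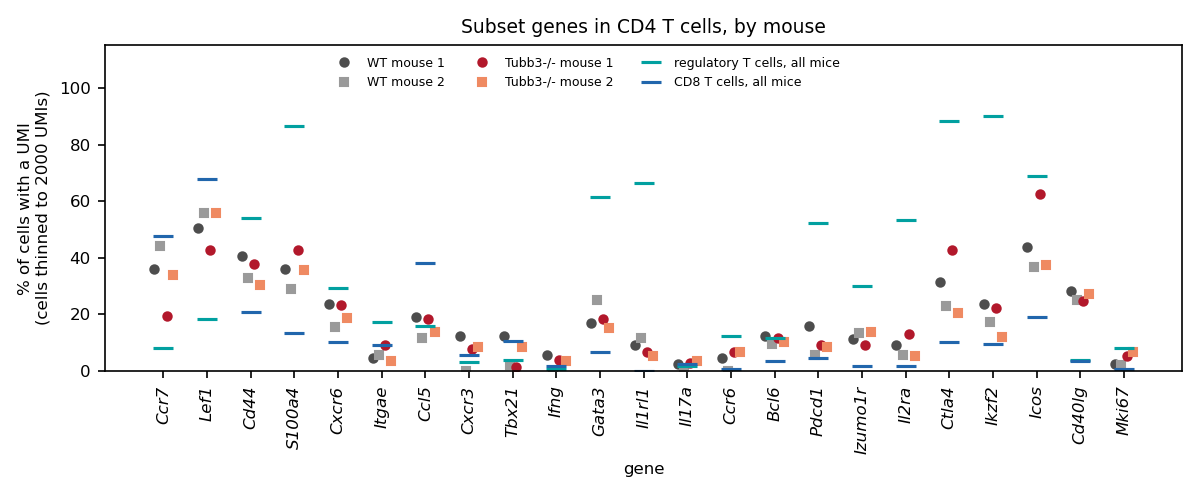
Percentage of CD4 T cells with a UMI of each gene (y axis) after thinning to 2000 UMIs, by mouse (points), with the share in all Tregs and all CD8 T cells (horizontal marks). *Ccr7* is lower in both Tubb3-/- mice (19.5% and 33.9%) than in both WT mice (36.0% and 44.2%), while *Ctla4*, *Cxcr3* and most other genes overlap; in unthinned cells *Ccr7* overlaps as well, and the 9 of 34 genes without overlap are no larger a share than the 32.7% over all genes.

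Whether genotype acted differently on CD4 T cells than on the other gates was tested with an interaction term in edgeR. Against Tregs, 0 of 6772 genes (0.0%) were called, with 193 at an unadjusted p-value under 0.05, and *Areg* had a difference of 1.83 ± 0.43 (adjusted p = 1). Against CD8 T cells, 1 of 6567 genes (0.0152%) was called, *Kcnip4*, a potassium channel-interacting protein, with 259 genes at an unadjusted p-value under 0.05. Its CPM were 8.26 and 269 in WT and 8.44 and 2.22 in Tubb3-/- CD4 T cells, and 5.50, 9.55, 113 and 14.6 in the CD8 T cells of the same mice. A single cell of WT mouse 2, of 18318 UMIs, held 100 of the 118 *Kcnip4* UMIs of all CD4 T cells. In the whole-cell libraries alone the difference was -6.88 on the log2 scale, with an adjusted p-value of 0.0505, against -6.92 and 0.0484 with both libraries.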

How the data were processed

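The deposited matrices hold counts, the UMIs per gene and cell that the authors obtained with Cell Ranger 7.1.0 on mm10 with an added Cre gene, split by cell tag into 4 mice per pool. They are whole numbers without normalization. Tag counts in the same files served only to check each cell's mouse. Sums of members held 404072 to 605730 UMIs per mouse.

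Cells were gated in Python 3 (numpy, pandas, scipy). For each mouse and gate, UMIs of both libraries were summed. The sums entered edgeR 4.0.16 (R 4.3.3) after filterByExpr and TMM scaling, with its quasi-likelihood test and Benjamini-Hochberg adjustment over all genes tested, the mouse being a term where gates of the same mice were compared. DESeq2 1.42.0 was an alternative. CPM differ slightly between comparisons, since scaling was done in each. Doublets were not called: cells over 2 times the median UMIs of their library were left out as an alternative. Shares were compared with exact permutation tests over mice. For shares of cells with a UMI, cells were thinned to 2000 UMIs and 1 member with fewer was left out. The tests were tried on simulated counts.

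The members and gene lists were chosen with earlier results of these data known. The text names called list members or the most abundant ones, *Tubb3*, *Cxcr3* and *Cxcl10*, the 10 genes of lowest p between genotypes (at least 20 CPM, no overlap) and, between gates, the 10 largest folds in each direction (at least 50 CPM, same direction in all mice). Other named genes were picked after their values were seen, namely *Top2a*, *Isg15*, *Ccr7* and *Tcf7* between genotypes, *Hbb-bs*, *Mki67*, the genes of the split by *Ccr7*, the cytokines and the dendritic cell genes of the 2 cells. Of 32285 gene IDs, 32158 matched GENCODE vM21, the source of the coordinates. The sources used here do not say if reads were counted by strand. Loci of several named genes (*Cd3e*, *Lef1*, *Satb1*, *Ikzf2*, *Tnfrsf9*, *Hopx*, *H2-Eb1*, *Kcnip4*) overlap other genes. *Trbc2*, *Hbb-bs* and *Ly6c2* have near-identical copies, so their counts are uncertain to that extent. In the genotype test, edgeR p-values measure the spread between the mice of a genotype. In the comparisons of gates, where the mouse was a term, they measure how the difference between gates varied from mouse to mouse. Values of some list members are not reported here.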

Additional observations from a re-analysis of the deposited data

Results flagged for a closer look

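*Kcnip4* was singled out because its genotype difference in CD4 T cells departed from that in CD8 T cells by the test of the difference itself, at -6.92 ± 0.95 on the log2 scale (edgeR interaction term, adjusted p = 0.0484). It was the single gene called among 6567. In CD4 T cells, 100 of its 118 UMIs lay in 1 cell of WT mouse 2 that also had 50 UMIs of *Lyz2* and the highest *Mctp1* count of any member, 56 UMIs. The mice of the genotypes overlapped in CD4 T cells, at 8.26 and 269 CPM in WT and 8.44 and 2.22 in Tubb3-/- mice.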

How the results depend on the processing

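Between genotypes, 4 genes were called. The count was 8 with the DESeq2 test, 109 without a filter on low counts, 7 with mitochondrial UMIs at most 10%, 10 without the 4 members of 100 or more *Lyz2* UMIs, 0 without the members over 2 times the median UMIs, and 0 without the 2 members of 100 or more MHC class II UMIs. It ranged from 4 to 75 with 1 mouse left out. With the mouse number as a replicate block, 66 genes were called, 33 of them higher. Labels do not say that equal numbers pair mice, only 2 pairs exist, and the deviations of equal-numbered mice correlated at 0.0995. Without the 2 cells *H2-Ab1* turned to 0.11 and *Cd74* to 0.59, *Cd74* to 0.41 without the cells over 2 times the median, and *Cxcr3* ranged from -0.22 to 1.98 with 1 mouse left out. Against Tregs 792 genes were called, 447 to 903 with 1 mouse left out, and within 1.5 times under the other alternatives (538 with DESeq2, 944 without cells of 100 or more MHC class II or *Lyz2* UMIs, 860 without the 21 members with 3 Treg genes). Against CD8 T cells 396 were called, 253 with the DESeq2 test, 695 without a filter and 225 to 335 with 1 mouse left out. The single interaction call was 0 in whole-cell libraries alone and 0 without cells of 100 or more MHC class II or *Lyz2* UMIs. The share of CD4 T cells differed by -0.376 percentage points (Tubb3-/- minus WT), by -3.72 over cells with *Cd3e*, and from -0.865 to 0.113 with 1 mouse left out. The subset genes without overlap, 9 of 34, were 19 to 23 with 1 mouse left out, where 2 mice against 1 overlap less often by construction, and 9 in unthinned cells. Other causes were not tested. Named genes against Tregs and CD8 T cells kept their direction under each alternative, but 32 of 94 and 21 of 61 lost the call under at least 1, mostly with 1 mouse left out (72 of 108 and 53 of 85 lost calls). The alternatives without cells of MHC class II or *Lyz2* UMIs, and without members with 3 Treg genes, were chosen after seeing the data. With 52 to 90 members per mouse, 1 cell can set the sum of a gene, and mice of 1 injury and 1 day were measured.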
